A study of Mus musculus with 6 samples.

Results

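Semaphorins, ephrins and Eph receptors were taken from the deposited expression table by gene symbol (Sema3 to Sema7, Efna, Efnb, Epha and Ephb), without use of any measured value. This gave 38 of the 14647 listed genes. They comprise 7 secreted class 3 semaphorins, 12 membrane semaphorins of classes 4 to 7, 4 ephrin-A ligands, 3 ephrin-B ligands, 7 EphA receptors and 5 EphB receptors. RNA was sequenced from the dissected pharyngeal arch region of mouse embryos at embryonic day 9.5 (E9.5). The *Pax9*-null group (Pax9-/-, *n*=3 libraries) carries the constitutive null allele on both chromosomes, and the wild-type group (*n*=3 libraries) carries none. Both groups were on a C57Bl/6J background, matched for somite number, and untreated. The comparison addresses how loss of *Pax9*, a paired-box transcription factor of the pharyngeal endoderm, alters the arch transcriptome. The null allele is present in every tissue of the embryo, and the dissected region holds endoderm, ectoderm, neural crest, mesoderm, vessels and blood together.

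Semaphorins are guidance proteins that share an extracellular sema domain. Class 3 members are secreted and act mostly through neuropilin and plexin receptors, whereas classes 4 to 6 span the membrane and class 7 is held there by a lipid anchor, and these act mainly through plexins. Ephrins and Eph receptors signal where cells touch. Ephrin-A ligands are lipid-anchored and bind mainly EphA receptor tyrosine kinases, ephrin-B ligands are transmembrane and bind mainly EphB receptors, and signals can pass into both the receptor-bearing and the ligand-bearing cell. In the pharyngeal arches both families are known for steering migrating neural crest cells and for patterning vessels and cranial nerves.

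Within each family the members resemble one another in sequence, which can matter for counts of short reads. The coding ends of the ephrin-B genes are the best example, since they encode the conserved tail with its terminal PDZ-binding motif through which ephrin-B proteins contact scaffold proteins. The last 102 coding bases, including the stop codon, are shown 5′ to 3′ from the GENCODE M21 transcripts on GRCm38. They come from chrX:99147426-99147527 (plus strand), chr8:8620588-8620689 (minus strand) and chr11:69555860-69555961 (minus strand), and capitals mark the bases that are identical in all 3 genes.
*Efnb1*: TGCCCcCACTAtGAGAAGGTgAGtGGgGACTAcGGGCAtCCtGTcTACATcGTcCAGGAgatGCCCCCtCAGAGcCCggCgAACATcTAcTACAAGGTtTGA
*Efnb2*: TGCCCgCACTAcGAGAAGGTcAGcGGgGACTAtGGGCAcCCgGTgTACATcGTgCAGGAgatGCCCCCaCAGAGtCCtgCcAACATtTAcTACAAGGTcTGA
*Efnb3*: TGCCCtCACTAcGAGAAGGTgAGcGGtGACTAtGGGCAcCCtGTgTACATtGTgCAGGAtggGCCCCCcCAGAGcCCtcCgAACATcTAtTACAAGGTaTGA
All 3 genes shared 80 of the 102 bases (78.4%), and the pairs were identical at 83.3% to 85.3% of them. Over the whole transcripts the longest exact run shared by any pair was 22 bases. For none of the 38 members was any stretch of 50 exonic bases found in another member, and at most 2.60% of such stretches (in *Epha1*) occurred in any other gene. Exons of *Efna4* overlapped those of another annotated gene over 10.5% of their length, of *Sema4c* over 7.27% and of *Epha1* over 6.01%. Because the counting settings given are the defaults, which do not use strand, reads from those stretches cannot be assigned to one gene.

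The regions upstream of the transcription start are shown for *Ephb2*, *Ephb4* and *Efnb1*, B-class members that were called lower in *Pax9*-null embryos, and for *Sema3c*, the highest semaphorin, which was not called. Each run is the 250 bases 5′ of the start on the coding strand, from RefSeq on GRCm38.p6, at chr4:136836013-136836262 (minus), chr5:137349859-137350108 (plus), chrX:99135811-99136060 (plus) and chr5:17574566-17574815 (plus). The *Sema3c* run is upstream of the RefSeq start only, and lies inside the GENCODE M21 gene, which begins at chr5:17574281. Capitals mark GGGCGG or its reverse complement, the GC box.
*Ephb2*: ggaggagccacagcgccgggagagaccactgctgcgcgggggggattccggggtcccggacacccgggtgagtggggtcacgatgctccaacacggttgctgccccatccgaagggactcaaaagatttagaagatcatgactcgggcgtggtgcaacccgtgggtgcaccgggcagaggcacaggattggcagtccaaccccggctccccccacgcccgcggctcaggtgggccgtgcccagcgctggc
*Ephb4*: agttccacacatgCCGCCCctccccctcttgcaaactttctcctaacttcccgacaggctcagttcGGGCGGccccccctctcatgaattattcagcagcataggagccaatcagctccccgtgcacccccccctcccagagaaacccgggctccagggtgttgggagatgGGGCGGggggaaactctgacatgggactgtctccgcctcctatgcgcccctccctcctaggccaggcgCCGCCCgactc
*Efnb1*: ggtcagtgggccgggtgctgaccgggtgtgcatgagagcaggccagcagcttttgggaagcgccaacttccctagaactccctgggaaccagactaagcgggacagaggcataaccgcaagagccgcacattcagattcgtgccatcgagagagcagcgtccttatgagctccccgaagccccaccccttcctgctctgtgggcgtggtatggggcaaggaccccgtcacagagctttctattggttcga
*Sema3c*: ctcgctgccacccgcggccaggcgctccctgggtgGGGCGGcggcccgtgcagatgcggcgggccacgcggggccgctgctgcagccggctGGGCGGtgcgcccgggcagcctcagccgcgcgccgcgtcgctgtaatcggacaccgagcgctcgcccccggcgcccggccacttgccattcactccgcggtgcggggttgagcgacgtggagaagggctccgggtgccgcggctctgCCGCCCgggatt
GC content of these windows was 68.4%, 64.0%, 60.0% and 78.4% in that order, and the GC box occurred 4 times for *Ephb4*, 3 times for *Sema3c* and not for the other two. Promoter windows were at hand for 34 of the 38 members, with 46 windows in all. GGGCGG on either strand was in 33 of them (71.7%), against 58.4% of the windows of all tested genes and 32.7% of all windows. Among members with a window it was found for 8 of 12 that were called lower and 15 of 19 tested members that were not. TATAAA was in 1 window (2.2%), against 6.4% of the windows of tested genes. GTCACGC, a core of the sequence that paired domains bind, was in 0 of the 46 windows, against 3.3% of the windows of tested genes. These are letter matches on both strands in a short window, and the motifs searched do not overlap one another.

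Between 11667382 and 12699670 reads were recovered per library from the deposited values. *Pax9* itself (chr12:56691767-56712822) was at 0.743, 0.644 and 0.666 RPKM (read counts scaled to gene length in kilobases and to library size) in *Pax9*-null replicates 1 to 3 and at 1.55, 1.64 and 1.94 RPKM in the wild-type replicates, a log2 fold change of −1.32 (s.e. 0.19, adjusted *P*=0.0155 by limma). Markers of neural crest (8 of 8 listed), pharyngeal mesoderm (7 of 7) and pharyngeal epithelium (6 of 7) were present in the table. Some libraries stood apart. In wild-type replicate 3 the 7 cardiomyocyte markers summed to 35.0 RPKM, against 684 to 858 RPKM in the other 5 libraries, smooth muscle markers (3 of 4 listed) to 50.5 against 217 to 289 RPKM, and 8 neuronal markers to 161 against 62.3 to 93.9 RPKM. In wild-type replicate 1 the 7 neural tube progenitor markers summed to 41.3 RPKM, against 71.4 to 81.5 RPKM elsewhere, and the 7 endothelial markers to 97.2 RPKM, against 45.4 to 62.3 RPKM. The 6 erythroid markers reached 4747 and 4318 RPKM in *Pax9*-null replicates 1 and 3, against 2331 to 2568 RPKM. In such whole tissue, fewer cells of a type and less RNA per cell cannot be told apart.

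Semaphorin, ephrin and Eph genes were mostly at lower levels in *Pax9*-null embryos, and none was called higher. Of the 38 members, 35 had a mean of at least 0.5 RPKM and were tested together with all other such genes (13547 in total) by limma, and a gene was called at a Benjamini-Hochberg adjusted *P* of at most 0.1. In the *Pax9*-null libraries 15 members were called lower and 0 higher, where 12.0% of all tested genes were called lower and 14.7% higher. At an unadjusted *P* of at most 0.05 there were 17 lower and 0 higher, but the share of all tested genes at that level was not computed. Voom on the recovered reads called 16 lower and 0 higher (13.5% of all genes fitted were called lower). The log2 fold change was below 0 in 31 of 35 members (50.2% of all tested genes), with a median of −0.42 against −0.00 over all tested genes. For 18 members the 3 *Pax9*-null libraries all lay below the 3 wild-type libraries (20.1% of all tested genes did), and for 0 members they all lay above (21.8%).

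As for all genes, these counts depended on single libraries and on the removal of trends with gene length and GC content. With *Pax9*-null replicate 1 or replicate 3 left out, limma called 0 members, where 0.295% and 0.162% of all tested genes (40 and 22) were called lower. Of the members 12 and 14 were lower at an unadjusted *P* of at most 0.05, and the median log2 fold change was −0.33 and −0.38. Here too the shares of all tested genes at that unadjusted level were not computed. Without wild-type replicate 1 there were 4 (*Efnb1*, *Efnb3*, *Ephb2* and *Sema5b*) against 5.15% of all tested genes, and without wild-type replicate 3, the library with few cardiomyocyte transcripts, 7 against 6.64%. Leaving out replicate 2 gave 14 in either genotype, against 10.2% without the *Pax9*-null and 11.6% without the wild-type library. *Pax9*-null replicate 2 was the highest *Pax9*-null library for 27 of the 35 members, and wild-type replicate 1 was the highest wild-type library for 24. Over all genes called lower the same libraries were the highest of their genotype for 68.4% and 70.6%. Members were long, with a median of 5645 bp of exon against 3851 bp over all tested genes, and GC-rich, with 54.8% against 48.9%. Across all tested genes, which are not independent and share these 6 libraries, the log2 fold change had a Spearman's rho of −0.41 with exon length and of −0.41 with GC content. Each library's dependence on exon length and on GC content was then removed (below, composition-adjusted values). After this, 29 of 35 members were still below 0 with a median of −0.16, and 1 was called lower, where 3.24% of the genes fitted were.

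**Figure D1:**
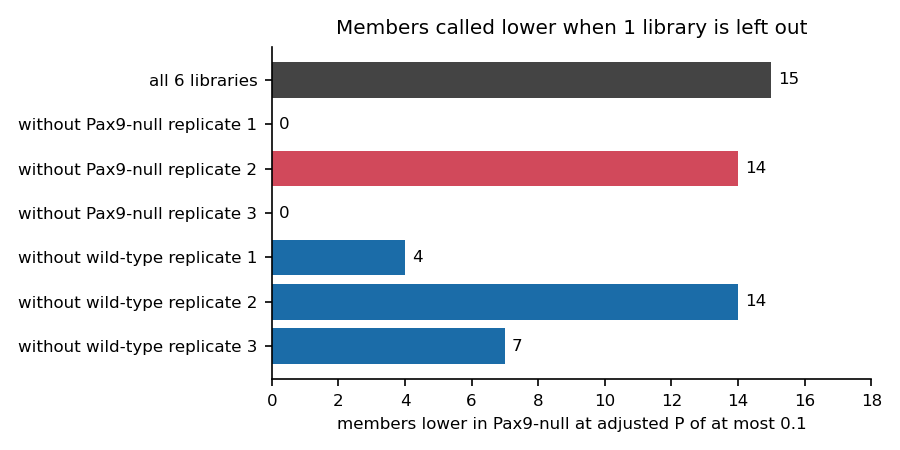
Number of the 35 tested members lower in *Pax9*-null at an adjusted *P* of at most 0.1 (limma, horizontal axis) with all 6 libraries (dark bar, 15) and with each *Pax9*-null (red) or wild-type (blue) library left out in turn. The bars for the fits without *Pax9*-null replicates 1 and 3 are at 0, and those without replicate 2 of either genotype are at 14. Over all tested genes 40 and 22 were called lower in the first pair of fits and 1382 and 1572 in the second, against 1621 with all libraries.

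Levels spanned a wide range. *Ephb4*, *Efnb2*, *Efnb3*, *Efna4* and *Epha4* were the highest members, with means over the 6 libraries of 23.7, 21.2, 19.5, 16.3 and 16.1 RPKM. *Sema4a*, *Epha5* and *Epha8* had means of 0.215, 0.128 and 0.314 RPKM, with 7 to 23, 17 to 33 and 5 to 29 reads per library, and were not tested. Summed over their 12 listed genes, the membrane semaphorins amounted to 24.5 ± 2.47 RPKM (mean ± SD, *n*=3) in *Pax9*-null and 34.5 ± 3.83 RPKM in wild-type libraries. Ephrin-B ligands summed to 48.3 ± 6.68 and 61.4 ± 1.92 RPKM, EphB receptors to 32.3 ± 4.14 and 44.7 ± 3.72 RPKM and EphA receptors to 33.8 ± 4.16 and 43.3 ± 5.60 RPKM. For the membrane semaphorins, ephrin-B ligands and EphB receptors the summed levels of the 3 *Pax9*-null libraries lay below those of the 3 wild-type libraries. Class 3 semaphorins (30.3 ± 3.76 and 32.8 ± 5.11 RPKM) and ephrin-A ligands (46.3 ± 3.03 and 47.1 ± 1.29 RPKM) overlapped between the genotypes, and so did the EphA receptors, by *Pax9*-null replicate 2 and wild-type replicate 2 at 37.7 and 37.6 RPKM.

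**Figure D2:**
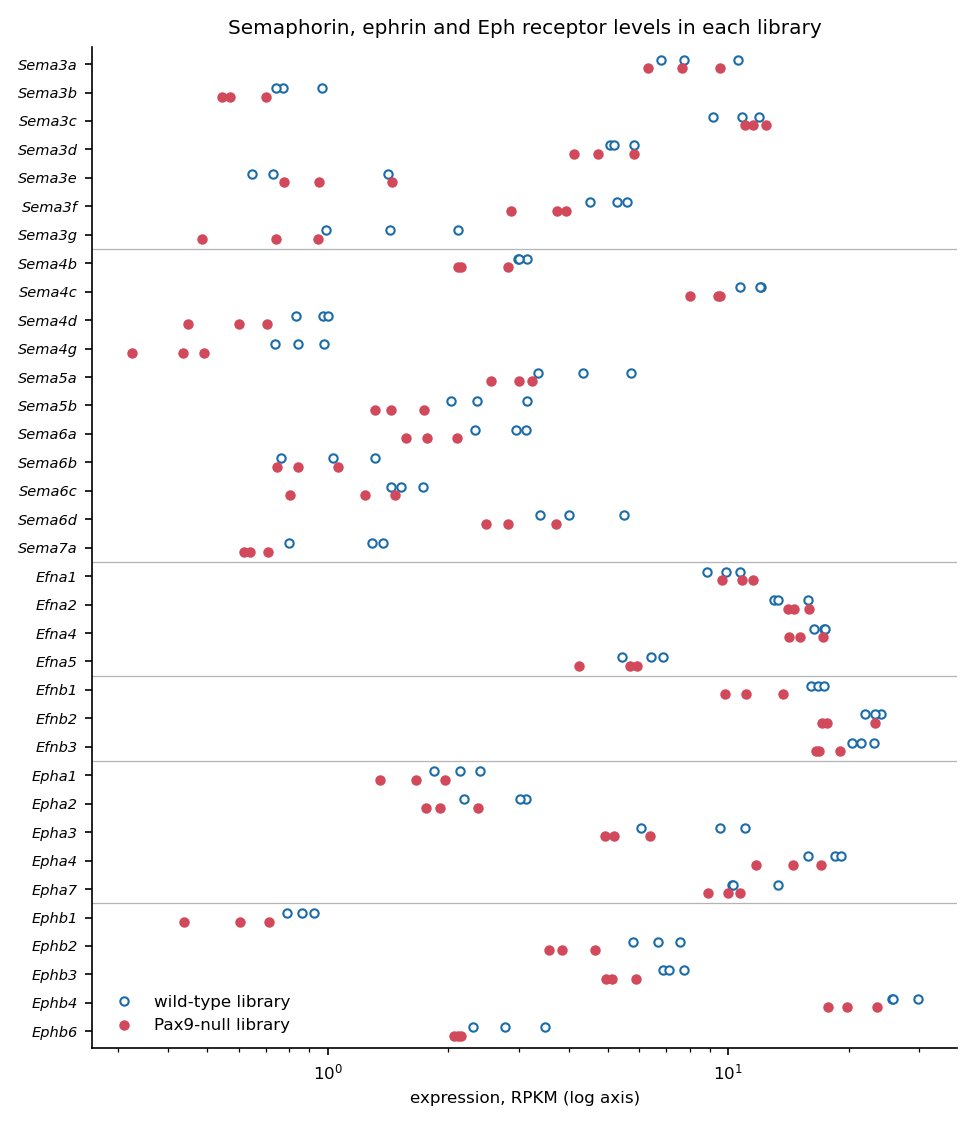
Expression in RPKM (log axis) of the 35 tested members in each *Pax9*-null library (filled red) and each wild-type library (open blue), with lines between the 6 subclasses. The red points lie wholly below the blue ones for 18 members, among them all 5 EphB receptors, and for none of the ephrin-A ligands or EphA receptors.

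The secreted class 3 semaphorins divided by gene. *Sema3g* and *Sema3f* were called lower, the other 5 were not, and the subclass had a median log2 fold change of −0.14. Of all tested genes 12.0% were called lower. *Sema3c*, a ligand known for its part in cardiac outflow tract septation, was the most highly expressed semaphorin, at 11.0, 12.4 and 11.5 RPKM in *Pax9*-null replicates 1 to 3 and 11.9, 10.8 and 9.17 RPKM in the wild-type replicates. Its groups overlapped, and the log2 fold change of 0.14 had a 95% interval of −0.14 to 0.42 (adjusted *P*=0.432). *Sema3a*, the neuropilin-1 ligand that repels sensory and sympathetic axons, was at 7.65, 9.51 and 6.30 RPKM against 10.6, 7.75 and 6.80 RPKM. These values overlapped too, with a log2 fold change of −0.10 (interval −0.57 to 0.38, adjusted *P*=0.766). *Sema3f*, which acts through neuropilin-2, was at 2.87, 3.74 and 3.93 RPKM against 5.59, 5.26 and 4.52 RPKM, without overlap, and fell by 0.55 on the log2 scale (s.e. 0.16, adjusted *P*=0.0640). *Sema3g*, known from arterial endothelium, was at 0.485, 0.947 and 0.742 RPKM against 2.11, 0.99 and 1.43 RPKM. It did not overlap but came close between *Pax9*-null replicate 2 and wild-type replicate 2, on 25 to 121 reads, and its log2 fold change was −1.04 (s.e. 0.35, adjusted *P*=0.0833). Of the rest, *Sema3b* was at −0.45 (adjusted *P*=0.200, no overlap), *Sema3d* at −0.14 (0.528) and *Sema3e*, the plexin-D1 ligand, at 0.23 (0.686, interval −0.61 to 1.07).

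The division of class 3 ran alongside genome position and base composition, a split made after the values were seen. *Sema3a*, *Sema3c*, *Sema3d* and *Sema3e* lie within 5.35 Mb of chromosome 5 (chr5:12383385-17730268), have an exon GC content of 38.0% to 41.0%, and had log2 fold changes of −0.14 to 0.23. *Sema3b*, *Sema3f* and *Sema3g*, on chromosomes 9 and 14, have 56.2% to 60.4% GC and were at −1.04 to −0.45. After composition adjustment, the first 4 genes were at −0.25 to 0.22 and the other 3 at −0.73 to −0.11. The part of base composition in the difference was not tested beyond that removal.

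Of the 11 tested membrane semaphorins, all were below 0, 7 were called lower and 8 did not overlap between genotypes, with a median log2 fold change of −0.58. Over all tested genes 50.2% were below 0, 12.0% were called lower and 20.1% were lower without overlap. After composition adjustment 10 of the 11 membrane semaphorins were below 0, with a median of −0.24. Of them 0 were called, where 3.24% of the genes fitted were called lower. *Sema4c*, a plexin-B2 ligand and the most highly expressed of them, was at 8.02, 9.43 and 9.55 RPKM in *Pax9*-null replicates 1 to 3 and 12.1, 10.7 and 12.0 RPKM in the wild-type replicates. All the *Pax9*-null values were the lower ones, and *Sema4c* fell by 0.37 on the log2 scale (s.e. 0.11, adjusted *P*=0.0644). After composition adjustment *Sema4c* was at −0.01 (adjusted *P*=0.935 by limma). *Sema4g* was at 0.434, 0.49 and 0.324 RPKM against 0.979, 0.74 and 0.841 RPKM. It had the largest log2 fold change of the family, −1.05 (s.e. 0.26, adjusted *P*=0.0465), on 18 to 60 reads per library, and was at −0.76 after composition adjustment. *Sema4d*, the plexin-B1 ligand also known from lymphocytes, was at 0.448, 0.707 and 0.601 RPKM against 0.972, 0.835 and 1.0 RPKM, with a log2 fold change of −0.70 (s.e. 0.24, adjusted *P*=0.0913). *Sema4b* did not overlap either, but at −0.38 it had an adjusted *P* of 0.138.

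Both class 5 semaphorins, which carry thrombospondin repeats beside the sema domain, were called. *Sema5a* was at 3.0, 3.24 and 2.56 RPKM in the *Pax9*-null and 5.70, 3.34 and 4.34 RPKM in the wild-type libraries, a log2 fold change of −0.58 (s.e. 0.21, adjusted *P*=0.0981), with *Pax9*-null replicate 2 just under wild-type replicate 2. By limma it was above the threshold with no filter (adjusted *P*=0.103), median centring (0.106) or quantile normalization (0.101). It was called in 1 of the 6 fits that left out a library, and was at −0.44 after composition adjustment. *Sema5b* was at 1.31, 1.44 and 1.74 RPKM against 2.03, 2.36 and 3.15 RPKM and fell by 0.73 on the log2 scale (s.e. 0.21, adjusted *P*=0.0630). After composition adjustment *Sema5b* was at −0.23. Wild-type replicate 3, the library with the highest neuronal markers, was its highest. Without that library *Sema5b* was at −0.56 (adjusted *P*=0.134 by limma), and a part of neuronal content was not tested. *Sema6a*, a plexin-A ligand, was the only one of the 4 class 6 genes to be called, at 1.57, 2.10 and 1.77 RPKM against 3.12, 2.33 and 2.95 RPKM (log2 fold change −0.62, s.e. 0.19, adjusted *P*=0.0658). *Sema6d* (−0.51, adjusted *P*=0.151), *Sema6c* (−0.46, 0.233) and *Sema6b* (−0.21, 0.605) overlapped between genotypes. *Sema7a*, the lipid-anchored member that signals through integrins and plexin-C1, was at 0.641, 0.618 and 0.711 RPKM against 1.37, 0.798 and 1.29 RPKM, without overlap (log2 fold change −0.78, s.e. 0.26, adjusted *P*=0.0826), on 23 to 57 reads.

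The median log2 fold change of class 3 semaphorins exceeded that of the membrane semaphorins by 0.43. A separate measure, the difference of medians within each library, was taken from values centred per gene, and its genotype means need not differ by 0.43. It was 0.14, 0.28 and −0.02 in *Pax9*-null replicates 1 to 3 and 0.01, −0.13 and −0.37 in the wild-type replicates. In this measure the genotypes overlapped through *Pax9*-null replicate 3 and wild-type replicate 1, and the SD between libraries of one genotype was 0.17. After composition adjustment the difference of the median fold changes was 0.13. Median GC content was 41.0% for class 3 and 55.0% for the membrane semaphorins.

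**Figure D3:**
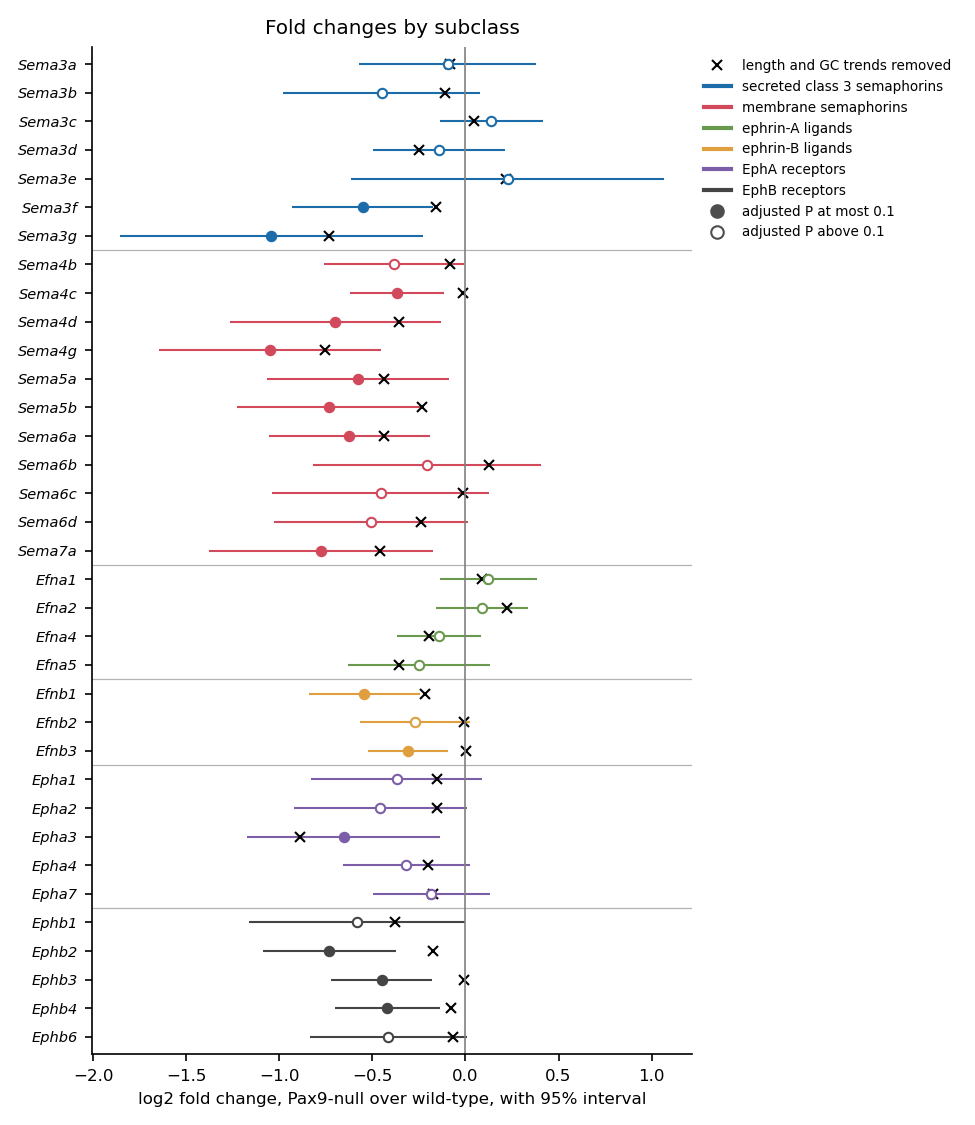
Log2 fold change, *Pax9*-null over wild-type (horizontal axis), of the 35 tested members by subclass, with 95% intervals from limma. Filled circles have an adjusted *P* of at most 0.1 (15 members), open circles do not, and crosses (length and GC trends removed) give the composition-adjusted value, which lies nearer 0 for 30 members but not for *Epha3* (−0.89).

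Of the 4 ephrin-A ligands, 0 were called by limma, 0 by voom and 0 at an unadjusted *P* of at most 0.05, and their median log2 fold change was −0.03. *Efna4* was at 15.1, 17.2 and 14.2 RPKM in *Pax9*-null replicates 1 to 3 and 16.4, 17.3 and 17.4 RPKM in the wild-type replicates. The groups overlapped, with a log2 fold change of −0.14 (95% interval −0.37 to 0.08, adjusted *P*=0.327). *Efna2* was at 14.1, 14.6 and 15.9 RPKM against 13.0, 13.3 and 15.8 RPKM, again overlapping (0.09, interval −0.16 to 0.34, adjusted *P*=0.575). *Efna1* was at 0.12 (interval −0.14 to 0.39) and *Efna5*, the ligand best known from retinotectal mapping, at −0.25 (interval −0.63 to 0.13). The 4 intervals leave room for a change of either sign.

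All 5 tested EphA receptors were below 0 (50.2% of all tested genes were). By limma 1 was called lower, where 12.0% of all tested genes were. *Epha4*, a receptor that binds both ephrin classes and marks hindbrain segments and crest streams, was the highest, at 14.5, 17.0 and 11.7 RPKM against 18.5, 15.8 and 19.1 RPKM. *Pax9*-null replicate 2 exceeded wild-type replicate 2, and the log2 fold change was −0.32 (s.e. 0.15, adjusted *P*=0.165). *Epha7* was at 9.96, 10.7 and 8.89 RPKM against 13.3, 10.2 and 10.3 RPKM (−0.18, s.e. 0.13, adjusted *P*=0.361), also with overlap. *Epha3*, a receptor expressed in mesenchyme and known for its part in endocardial cushions, was at 6.39, 5.18 and 4.93 RPKM against 11.0, 6.07 and 9.55 RPKM. *Pax9*-null replicate 1 lay above wild-type replicate 2, so that an exact two-sided permutation test gave *P*=0.2, and the limma log2 fold change was −0.65 (s.e. 0.22, adjusted *P*=0.0857). *Epha3* was the member called after composition adjustment, at −0.89 (s.e. 0.22, adjusted *P*=0.0907). Its exon GC content is 38.9%, low for the family. Over all alternatives its adjusted *P* ran from 0.0275 to 0.214, and of the 6 fits that left out a library it was called in the 1 without wild-type replicate 2. *Epha1* (−0.37, adjusted *P*=0.223) and *Epha2* (−0.46, 0.148) overlapped between genotypes.

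Ephrin-B ligands were abundant, with 2 of 3 called lower (12.0% of all tested genes were). *Efnb1*, the X-linked ligand whose loss in humans causes craniofrontonasal syndrome, was at 9.82, 13.7 and 11.1 RPKM in *Pax9*-null replicates 1 to 3 and 16.1, 16.7 and 17.3 RPKM in the wild-type replicates. The groups were well apart, and *Efnb1* fell by 0.54 on the log2 scale (s.e. 0.13, adjusted *P*=0.0449). *Efnb3* was at 16.6, 19.0 and 16.8 RPKM against 20.3, 21.4 and 23.1 RPKM, without overlap (−0.31, s.e. 0.09, adjusted *P*=0.0674). After composition adjustment *Efnb1* was at −0.22 and *Efnb3* at 0.00, so that *Efnb3* was no longer below 0. *Efnb2*, the arterial endothelial ligand, was at 17.1, 23.2 and 17.6 RPKM against 24.1, 22.0 and 23.3 RPKM. *Pax9*-null replicate 2 lay between the wild-type libraries, and the log2 fold change was −0.27 (95% interval −0.57 to 0.02, adjusted *P*=0.169).

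Every EphB receptor had its *Pax9*-null libraries below its wild-type libraries, and 3 of the 5 were called. Of all tested genes 20.1% were lower without overlap and 12.0% were called lower. *Ephb2* (chr4:136647539-136835988, minus strand) was at 3.57, 4.65 and 3.84 RPKM against 7.58, 5.78 and 6.68 RPKM. It had the lowest adjusted *P* of the 35 members (log2 fold change −0.73, s.e. 0.15, adjusted *P*=0.0391). *Ephb3* was at 4.94, 5.88 and 5.12 RPKM against 7.76, 6.85 and 7.11 RPKM (−0.45, s.e. 0.12, adjusted *P*=0.0513). *Ephb4*, the venous endothelial receptor for ephrin-B2 and the most highly expressed member of all, was at 17.7, 23.5 and 19.8 RPKM against 29.7, 25.6 and 25.8 RPKM, and fell by 0.42 on the log2 scale (s.e. 0.12, adjusted *P*=0.0625). *Ephb1* (−0.58, adjusted *P*=0.142) and *Ephb6* (−0.41, 0.148), a receptor without kinase activity, were not called. After composition adjustment the 5 receptors were at −0.38 to −0.01, with *Ephb2* at −0.17 (adjusted *P*=0.327, 0.0236 to 0.441 over the alternatives).

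For the Eph system as a whole, 1 of 9 tested A-class genes and 5 of 8 B-class genes were called lower. Of these classes 0 and 7 genes were free of overlap, and the medians were −0.25 and −0.43. Of all tested genes 12.0% were called lower and 20.1% were lower without overlap, so the A-class calls were near the first share. The A-minus-B difference of the median fold changes was 0.18. A separate measure, the difference of medians within each library, was taken from values centred per gene, and its genotype means need not differ by 0.18. It was 0.26, 0.08 and 0.05 in *Pax9*-null replicates 1 to 3 and 0.01, −0.18 and −0.15 in the wild-type replicates. In this measure the genotypes did not overlap, and the SD between libraries of a genotype was 0.11. After composition adjustment the difference of the median fold changes turned to −0.10, as the B-class median moved to −0.07 and the A-class median to −0.17. Median GC content was 53.6% for the A-class and 57.6% for the B-class genes.

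**Figure D4:**
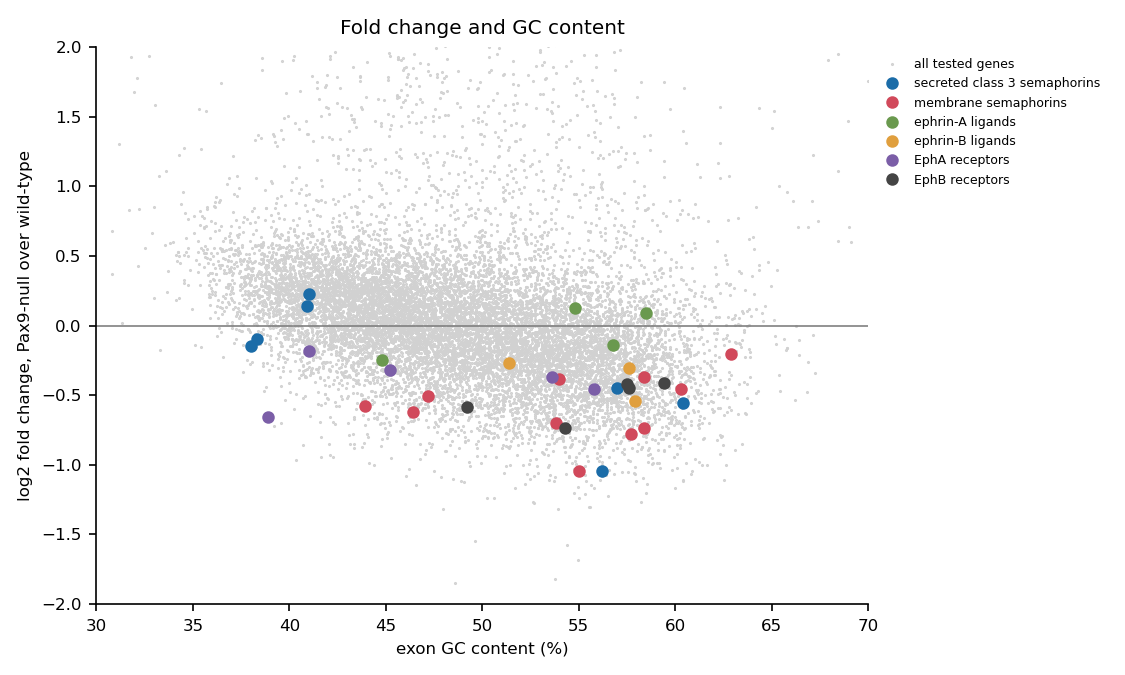
Log2 fold change, *Pax9*-null over wild-type (vertical axis, shown from −2 to 2), against exon GC content in per cent (horizontal axis, shown from 30 to 70) for all tested genes within these limits (grey) and the 35 members (coloured by subclass). Of the members, 24 are above the median GC content of all tested genes, and *Epha3* at 38.9% GC and −0.65 lies low among grey genes of like GC content.

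Several of these genes are used by vessels. Of the 7 endothelial markers, which had mean levels of 3.40 to 14.1 RPKM, 2 were called lower (*Cdh5* at −0.67 and *Tie1* at −0.74), 0 after composition adjustment. The other 5, among them *Tek* at −0.05 and *Emcn* at 0.08, were not called. Of the 7 markers 6 were below 0, with a median log2 fold change of −0.51. After composition adjustment all 7 were below 0, with a median of −0.32. Without wild-type replicate 1, the library with the highest summed level, the unadjusted median was −0.24. In that fit 0 of the 7 were called lower (5.15% of all tested genes were). The summed levels overlapped between genotypes, with 45.4 to 62.3 RPKM in the *Pax9*-null and 51.6 to 97.2 RPKM in the wild-type libraries. Neural crest markers summed to 88.6 to 95.2 RPKM in *Pax9*-null and 83.4 to 92.9 RPKM in wild-type libraries, with 1 of 8 called lower (*Sox10*, −0.59) and 1 higher (*Twist1*, 0.35). Of the neuronal markers 1 of 8 was called lower, of the pharyngeal mesoderm markers 1 of 7 lower and 1 higher, and of the erythroid markers 2 of 6 higher. Of all tested genes 12.0% were called lower and 14.7% higher. The medians of these 3 lists were −0.50, 0.16 and 0.575 (−0.58, −0.02 and 0.30 after composition adjustment). All 8 neuronal markers were below 0. Their median was −0.16 without wild-type replicate 3 (1 called lower) and −0.75 without wild-type replicate 1 (3 called lower). In these fits 6.64% and 5.15% of all tested genes were called lower. With all 6 libraries limma called 0 of 7 neural tube progenitor, 0 of 7 cardiomyocyte and 0 of 3 smooth muscle markers. Of each list 0 were at an unadjusted *P* of at most 0.05 and 0 were called by voom. Limma called 0 of 6 pharyngeal epithelium markers, with 1 at that unadjusted *P* and 1 by voom. Without wild-type replicate 3 limma called 4 of the 7 cardiomyocyte markers lower (6.64% of all tested genes were). Their median moved from 0.70 to −0.74, and that of the smooth muscle markers from 0.50 to −0.22 with 0 called lower. Without wild-type replicate 1 the neural tube progenitor median moved from 0.25 to −0.20. The part of any of these cell types in the members' values was not tested.

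The receptors for semaphorins were mostly lower. Of 10 tested plexin and neuropilin genes 7 were called lower and 0 higher, with a median log2 fold change of −0.66 (−0.22, with 0 called, after composition adjustment). The shares over all tested genes were 12.0% lower and 14.7% higher. *Plxnd1*, the endothelial receptor for *Sema3e*, was at 3.36, 5.15 and 4.70 RPKM in *Pax9*-null replicates 1 to 3 and 14.4, 7.04 and 8.10 RPKM in the wild-type replicates. It fell by 1.11 on the log2 scale (s.e. 0.28, adjusted *P*=0.0482), with wild-type replicate 1 far above the rest. *Plxna1*, a co-receptor of neuropilins for class 3 ligands, was at 4.91, 6.97 and 5.62 RPKM against 10.2, 8.90 and 11.1 RPKM (−0.80, s.e. 0.15, adjusted *P*=0.0336). Both were above the threshold without *Pax9*-null replicate 1 (adjusted *P*=0.180 and 0.128) and without replicate 3 (0.128 and 0.128).

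Downstream of the receptors, 8 of 17 tested semaphorin signalling partners were called lower and 0 higher (12.0% and 14.7% of all tested genes). Their median was −0.43. After composition adjustment the median was −0.17 and 1 was called, and without *Pax9*-null replicate 1 or 3 it was 1 each. *L1cam*, a cell adhesion molecule that associates with neuropilin-1, was at 0.394, 0.218 and 0.377 RPKM against 0.821, 0.512 and 0.871 RPKM (−1.17, s.e. 0.34, adjusted *P*=0.0639, 18 to 80 reads). *Crmp1*, a collapsin response mediator that relays semaphorin 3A signals to the cytoskeleton, was at 5.44, 5.33 and 5.33 RPKM against 9.87, 8.70 and 11.1 RPKM. It fell by 0.87 on the log2 scale (s.e. 0.12, adjusted *P*=0.0121) and was called in all 6 fits that left out a library and after composition adjustment (−0.48, adjusted *P*=0.0982), whereas *L1cam* was called in 1 of the 6, without wild-type replicate 2. 

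Partners of ephrins and Eph receptors were mixed, with 6 of 20 called lower, 3 called higher and a median of −0.17. Of all tested genes 12.0% were called lower and 14.7% higher, so that the 3 called higher were near the share over all genes. After composition adjustment the median was −0.05 and 0 were called, and without *Pax9*-null replicate 1 or 3 limma called 0 lower. *Grip1*, a PDZ scaffold for the ephrin-B tail shown above, was at 1.51, 1.76 and 1.60 RPKM against 3.91, 2.25 and 2.57 RPKM (−0.80, s.e. 0.23, adjusted *P*=0.0584). *Kalrn*, a signalling partner of EphB receptors, was at 1.58, 2.01 and 1.86 RPKM against 3.80, 2.49 and 2.84 RPKM (−0.73, s.e. 0.20, adjusted *P*=0.0559). Neither overlapped between genotypes, and both were above the threshold without *Pax9*-null replicate 1 (adjusted *P*=0.198 and 0.197), *Pax9*-null replicate 3 (0.150 and 0.139) or wild-type replicate 1 (0.105 and 0.116). The 3 genes called higher were *Yes1*, a Src-family kinase (0.48, adjusted *P*=0.0309), *Nck1*, an adaptor (0.30, 0.0581), and *Sdcbp*, which encodes syntenin, another PDZ partner of the ephrin-B tail (0.28, 0.0741). They were called in 4, 2 and 2 of the 6 fits that left out a library, and were at 0.34, 0.05 and 0.22 after composition adjustment.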

How the data were processed

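RNA from the pharyngeal region of 6 E9.5 mouse embryos, 3 of each genotype, gave 6 libraries. *P* values measure the spread between these libraries, and nothing says whether embryos of a genotype shared a litter. According to the submitters' processing notes the authors used Trimmomatic (0.32), STAR (2.5.1a) and featureCounts (1.5.1) on GRCm38.p5. Per the study's methods reads were uniquely aligned, made non-redundant and sub-sampled towards the smallest library. The labels describe another protocol (sorted cells and Smart-seq2), and the study's methods, which name whole tissue, were followed. The deposited values are log2 RPKM made by the authors, which carry gene length and a small prior count. The table has 0 columns without a sample.

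The 13547 genes (of 14647) whose mean RPKM reached 0.5 were tested with limma (3.58.1, R 4.3.3) on the deposited log2 values, two-sided, with a variance trend and Benjamini-Hochberg adjustment, at the study's threshold of 0.1. The smallest *P* that the exact permutation test of 3 against 3 allows is 0.1. Whole reads were recovered from the values with the library sizes and prior counts they imply (82.7% of values within 0.05 of a whole read at GENCODE M21 lengths, the rest after a length search). For the composition adjustment, each library's deviations from the gene means were regressed on natural splines of log2 exon length and GC content (5 degrees of freedom each) across 13523 genes, and the fit was subtracted. The fits were tested on simulated data.

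The genes, lists and tests were chosen with earlier results of these data known. Values per library are given for each called member and for the 2 highest members of each subclass, and for the 2 called genes of largest fold change in each list of receptors or partners. Alternatives comprised pseudocounts, filters, normalizations, the trend removal, a replicate block, library weights and each library left out. Voom on recovered reads, and the trend removal together with the block, were added after the data were seen. Python (3.11.15) with pandas (2.3.3) and matplotlib (3.10.9) was used for summaries and plots.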

Additional observations from a re-analysis of the deposited data

How the results depend on the processing

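The number of members called lower was 15 in the comparison of all libraries. It was 7 with a mean of at least 5 RPKM required (17 of the 35 tested members were then fitted), against 1091 of 7983 genes. With the length and GC trends removed (the composition adjustment) it was 1, against 438 of 13523 genes. With those trends removed and a replicate block it was 1, against 111 of 13523 genes. At an adjusted *P* of at most 0.05 by limma it was 3, and genes over the whole table were not counted at that level. With any 1 library left out it ranged from 0 to 14, while the count over all genes ranged from 22 to 1572. With the replicate number as a block alone it was 5 (*Efnb1*, *Epha3*, *Ephb2*, *Sema4g* and *Sema5b*), and over all genes that block called 495 lower and 882 higher, against 1621 and 1990 without it. Same-numbered libraries share only a number, with correlations of their deviations of −0.02, −0.17 and 0.26. No alternative called a member higher. The difference between the medians of class 3 and membrane semaphorins, 0.43, was 0.25 with a pseudocount of 1, 0.27 with a mean of at least 5 RPKM and 0.13 with the trends removed, with or without the replicate block. The A-minus-B difference, 0.18, was −0.10 with the trends removed, again with or without the replicate block. *Efnb3* (0.000625, from −0.31) and *Sema6b* (0.13, from −0.21) changed sign with the trends removed, with or without the block. *Sema3a* was at 0.0248 with library weights. None of these reversed values had an adjusted *P* under 0.1 by limma. With single libraries left out *Sema3a* ran from −0.25 to 0.0879 and *Sema3e* from −0.0233 to 0.57. The causes were not tested. Over all genes, 772 were called with the trends removed, against 3611. Depth limits *Sema4g*, *Sema7a*, *Sema4d* and *Sema3g* most among the called members, with 18 to 33 reads in their lowest library.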

Other observations

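Some members lie next to each other in the genome. *Ephb2* and *Epha8* are 93.4 kb apart on chromosome 4, and while *Ephb2* was called lower, *Epha8* had at most 29 reads in any library and was not tested. *Sema3b* and *Sema3f* are 72.3 kb apart on chromosome 9, at log2 fold changes of −0.45 and −0.55 with the *Pax9*-null libraries below the wild-type libraries for both. *Efna1* and *Efna4* are 52.2 kb apart on chromosome 3, at 0.12 and −0.14 with overlap for both. Among the partners, *Itgb1* (0.05), *Adam10* (0.09) and *Rasa1* (0.07) were near 0 and not called, whereas *Dpysl5* (−0.68, adjusted *P*=0.0464 by limma) and *Itsn1* (−0.68, 0.0430) fell. After composition adjustment *Dpysl5* was at −0.25 and *Itsn1* at −0.24, and neither was called. Both were above the threshold by limma without *Pax9*-null replicate 1 (adjusted *P*=0.175 and 0.166) or replicate 3 (0.128 and 0.128). These genes were chosen after their values were seen.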
